A study of Mus musculus with 14 samples.

Results

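The MYC, MAX and MXD network is a group of dimerising transcription factors, and its 10 members were followed here in haematopoietic stem cells (HSCs), which renew themselves in the marrow and give rise to all blood cells. The members are the activators Myc, Mycn and Mycl, their shared partner Max, the repressors Mxd1, Mxd3, Mxd4, Mxi1 and Mnt, and Mlx, a second partner of part of the repressors. They were taken by gene symbol from the 48714 gene labels shared by all libraries, and each symbol occurred once. Of the 10 members, 8 reached a mean of 1 RPKM (reads divided by gene model length and by library total) and were tested among 9921 genes; Mycl and Mxd3 stayed below it.

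The cells came from the bone marrow of C57BL/6 mice and had been sorted as HSCs with high or low calcium, [Ca2+]high and [Ca2+]low, named calcium-high and calcium-low below. Each group had 7 libraries of 100 cells, numbered 1 to 7 in both groups. No other genotype or agent is named in the labels, and the mice's age, the gates that defined an HSC, and whether libraries came from separate animals are not given in the sources used here. P-values therefore measure the spread between these libraries, which may be technical. The series title concerns dormant and active HSCs and the control of dormancy by cytoplasmic calcium.

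A MYC protein binds DNA only as a dimer with MAX, at a short motif called the E-box, and the dimer raises transcription of genes for ribosomes, metabolism and cell division. MXD proteins and MNT compete for MAX and, at the same motif, bring in SIN3 and histone deacetylases that repress. MNT and part of the MXD proteins can also pair with MLX, which with the MONDO proteins MLXIP and MLXIPL answers to glucose. In HSCs Myc and Mycn act together in survival and proliferation, and MYC activity is known to go up as a stem cell leaves dormancy.

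A few of the members' promoters hold motifs through which this network is usually described, and the stretches below show where. RefSeq promoter windows (GRCm38.p6, the 250 bases before the start of the gene) were matched for 9 of the 10 members, all but Myc. The E-box CACGTG, which reads the same on both strands, was found in the windows of 3 of these 9 members, Mxd4, Mnt and Mlx. Over all 32851 windows 6.02% held it, and among the 7562 tested genes with a window 10.4% did. Each line gives 60 bases from 5′ to 3′ with the E-box in capitals, from chr5:34187897-34187956 on the minus strand for Mxd4, chr11:74830774-74830833 on the plus strand for Mnt and chr11:101087223-101087282 on the plus strand for Mlx.
Mxd4: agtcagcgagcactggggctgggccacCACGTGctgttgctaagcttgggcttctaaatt
Mnt: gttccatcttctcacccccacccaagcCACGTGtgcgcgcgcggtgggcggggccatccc
Mlx: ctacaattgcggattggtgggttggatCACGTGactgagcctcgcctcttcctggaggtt

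A second motif, TTTGGCGC, is of the kind bound by E2F factors, which act at entry into the cell cycle. It does not overlap the E-box in letters and was searched on both strands. It was found in 0.417% of all windows and in 1.03% of those of tested genes. Among the members Mycn alone held it, at 2 positions. The 75 bases from chr12:12941967-12942041 on the minus strand carry both matches in capitals. They lie at -205 to -131 from the start used for the RefSeq window, which differs from that of the GENCODE gene model given below (12941914). A match describes letters in the window and is not a binding site.
Mycn: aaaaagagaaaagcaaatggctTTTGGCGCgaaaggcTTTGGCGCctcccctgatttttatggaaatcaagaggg

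The libraries held 3575219 to 10296224 reads in listed genes, fewer in replicates 1 to 3 of both groups (up to 7387721) than in replicates 4 to 7 (8280683 or more). Y-linked genes divided the libraries otherwise, with 1316 to 1650 reads in each library of replicates 1 and 2 and 16 to 75 in replicates 3 to 7. All 11 HSC markers reached the tested level, and the 7 B cell markers together stayed at or below 6.27 RPKM in every library. Calcium-low replicate 3 stood apart. Its neutrophil markers summed to 766 RPKM (S100a8 alone was at 392) against at most 77.3 in the other libraries. Its cycling markers, genes of mitosis such as Top2a, summed to 206 against at most 23.0, and its erythroid markers to 157. Calcium-high replicate 3 had the next highest erythroid sum, 84.3, while its neutrophil sum was 3.90. Bulk libraries cannot tell fewer cells of one type from less RNA per cell.

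Per length of gene model, Myc and Mycn were at higher levels than their partner and their antagonists. Over all 14 libraries the mean level was 37.5 ± 16.4 RPKM for Myc and 18.0 ± 7.83 RPKM for Mycn (SD, n = 14), above the levels of 97.5% and 92.9% of tested genes. Next came Mxd4 at 5.49 ± 1.35, Max at 4.91 ± 0.962, Mxd1 at 3.87 ± 0.944, Mnt at 3.61 ± 0.746, Mlx at 2.98 ± 0.597 and Mxi1 at 2.67 ± 0.780 RPKM. From Mxd4 down to Mxi1, neighbours in this order lay about 1 SD apart or closer. Mxd3 averaged 0.734 ± 1.47 RPKM. Mycl was close to absent, with 9 reads over all libraries.

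**Figure D1:**
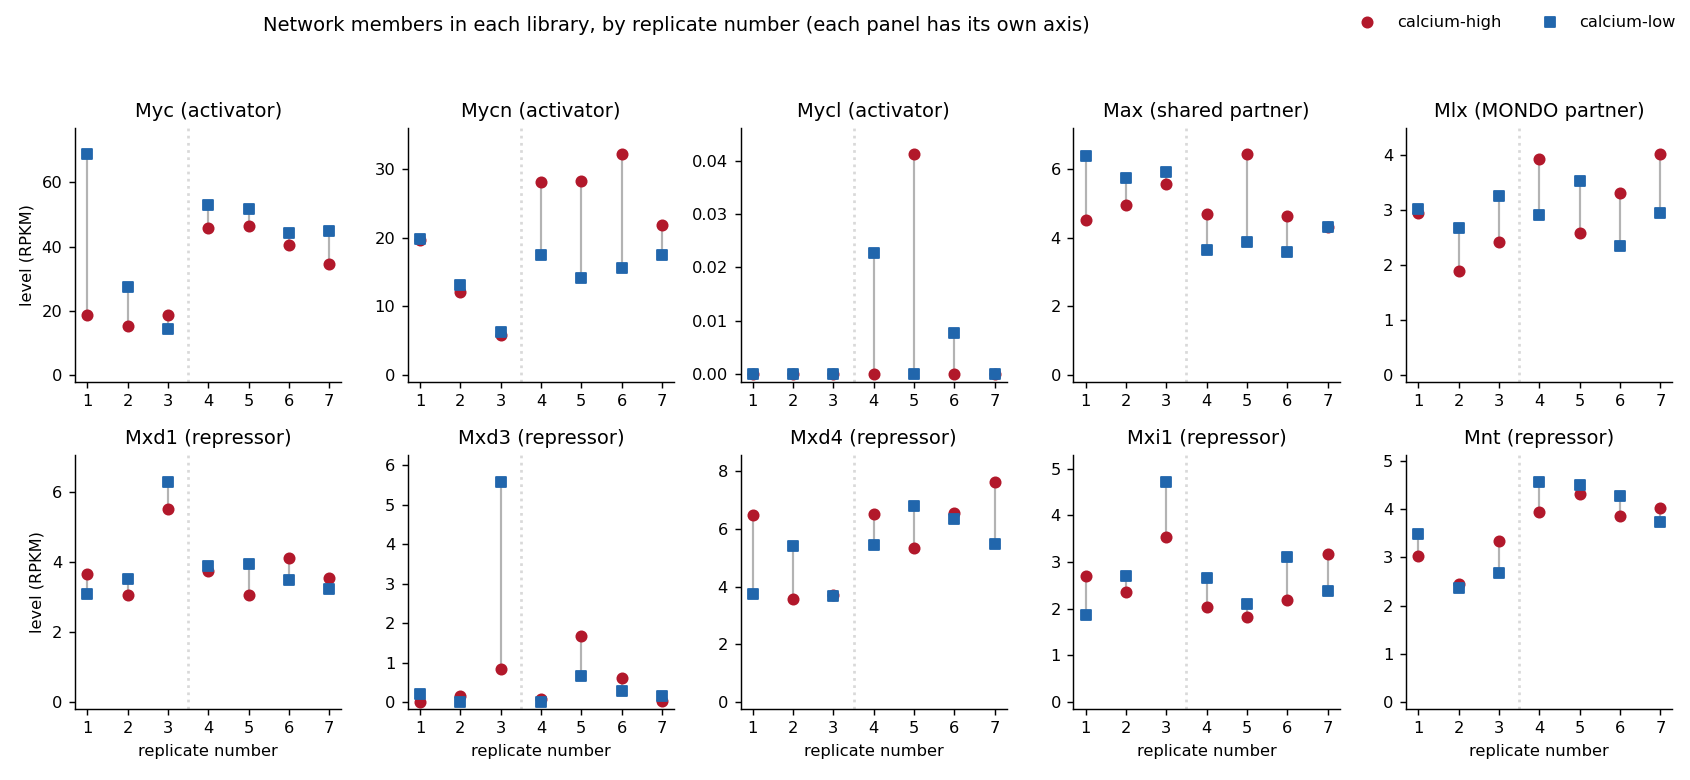
Level in RPKM (vertical axis, scaled per gene) of each network member in each library against replicate number, with calcium-high libraries as circles, calcium-low libraries as squares and a grey line joining libraries with the same number; the dotted line separates replicates 1 to 3 from 4 to 7. Myc lies lower in calcium-high in 6 of 7 pairs, Mycn lies higher in all 4 pairs of replicates 4 to 7, and Mxd3 has a single high value in calcium-low replicate 3.

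No member of the network passed by limma on log2(RPKM + 1) over all 14 libraries, and Mycn passed in replicates 4 to 7 and by limma-voom, a fit on recovered reads. Calcium-high and calcium-low libraries were compared with Benjamini-Hochberg adjustment over all 9921 genes and a threshold of 0.05 on the adjusted p. Of the 8 members tested, 0 were called and 0 had an unadjusted p under 0.05, and over all genes 0% were called, with 669 at an unadjusted p under 0.05. With the replicate number as a block, which compares libraries of the same number, limma again called 0 members, with 2 (Myc and Mycn) at an unadjusted p under 0.05, against 0.917% of all genes called. Replicates 4 to 7 alone gave 1 member called, Mycn, against 8.14% of all genes, and replicates 1 to 3 alone gave 0 members and 0% of all genes, with 1151 genes at an unadjusted p under 0.05. Limma-voom over all 14 libraries called 1 member, Mycn, with and without the block, against 6.69% and 7.62% of all genes.

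The activators Myc and Mycn lay on opposite sides of 0. Myc (GRCm38 chromosome 15, 61985391 to 61990374), the best-studied family member and a general driver of growth, was lower in calcium-high in 6 of 7 pairs of the same number. It ranged from 15.4 to 46.4 RPKM in calcium-high libraries (median 34.6, mean 31.5 ± 13.5, SD, n = 7) and from 14.3 to 68.8 RPKM in calcium-low libraries (median 44.8, mean 43.5 ± 17.8). The groups overlapped, and the lowest and the highest value were both calcium-low libraries, of replicates 3 and 1. The difference, calcium-high minus calcium-low, was -0.44 on the log2 scale (95% interval -1.12 to 0.24, limma adjusted p = 0.928 without the block and 0.352 with it).

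The Myc difference was small and regular in replicates 4 to 7 and wide in replicates 1 to 3. In replicates 4 to 7 Myc was at 45.7, 46.4, 40.5 and 34.6 RPKM in calcium-high against 52.8, 51.9, 44.4 and 44.8 RPKM in calcium-low libraries. Each calcium-high library was below the calcium-low library of the same number, while the groups overlapped in range. Libraries of the same number correlated little over all genes within this set (-0.065 to 0.123). The difference there was -0.21 on the log2 scale (limma adjusted p = 0.223), and with libraries rescaled by the median of ratios it was -0.34 (limma adjusted p = 0.0484), which passed the threshold. Under that scaling replicates 4 to 7 gave 2 called members, Myc lower and Mycn higher, against 6.10% of all genes. This fit was added after seeing the data. The calls over all genes were then 271 higher and 334 lower, in place of 631 higher and 177 lower. In replicates 1 to 3 the calcium-high libraries were at 18.8, 15.4 and 18.7 RPKM and the calcium-low libraries at 68.8, 27.4 and 14.3 RPKM. Without calcium-low replicate 3, the library with neutrophil and cycling markers, the difference over the rest was -0.68 (limma adjusted p = 0.580). Without calcium-low replicate 1 it was -0.31.

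Mycn (chromosome 12, 12936093 to 12941914), a close relative able to replace Myc in many functions, was higher in calcium-high HSCs of replicates 4 to 7. There it was at 28.2, 28.3, 32.2 and 21.9 RPKM in calcium-high libraries against 17.5, 14.1, 15.7 and 17.6 RPKM in calcium-low libraries. All 4 calcium-high libraries lay above all 4 calcium-low libraries. The means were 27.6 ± 4.27 and 16.2 ± 1.66 RPKM (SD, n = 4), and the log2 difference of 0.73 (95% interval 0.48 to 0.98) passed by limma with an adjusted p of 0.00348, and of 0.00718 with the block. It passed without each of these 8 libraries in turn, with log2 differences of 0.65 to 0.83 and limma adjusted p from 0.00171 to 0.0152. With median-of-ratios scaling it was 0.60 (limma adjusted p = 0.00891). Max also separated the groups in replicates 4 to 7 as deposited, with its nearest libraries at 4.33 (calcium-high) and 4.32 RPKM (calcium-low). After median-of-ratios scaling Max was higher in calcium-high in 3 of 4 of these pairs. The share of all tested genes that separated the groups was not counted. By limma, 8.14% of all tested genes were called in these replicates, 631 higher and 177 lower.

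As deposited, replicates 1 to 3 gave no such difference in Mycn. Their calcium-high libraries were at 19.8, 12.1 and 5.90 RPKM and their calcium-low libraries at 19.9, 13.2 and 6.28 RPKM, so that each pair was close and the pairs were far apart. After median-of-ratios scaling the log2 differences of replicates 1, 2 and 3 were 0.29, 0.01 and 0.19. Over all 14 libraries Mycn averaged 21.2 ± 9.49 RPKM in calcium-high (5.90 to 32.2, median 21.9) and 14.9 ± 4.42 RPKM in calcium-low (6.28 to 19.9, median 15.7). The log2 difference was 0.39 (95% interval -0.27 to 1.04, limma adjusted p = 0.951 without and 0.263 with the block). On whole reads recovered from the RPKM steps, limma-voom, which gives noisier libraries less weight, called Mycn higher without the block (log2 difference 0.65, adjusted p = 0.0458) and with it (0.52, adjusted p = 0.0140). No library of replicates 1 to 3 had a weight above 0.808, and none of replicates 4 to 7 one below 0.908 (range of all 0.202 to 2.72). That fit therefore rests mostly on replicates 4 to 7 and is no independent support.

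The difference between the replicate sets was itself tested. The Mycn difference was larger in replicates 4 to 7 than in replicates 1 to 3 by 0.79 on the log2 scale. By limma this had an adjusted p of 0.253 without the block and 0.0502 with it, both above the threshold. Under median-of-ratios scaling and the block it was 0.43 (limma adjusted p = 0.366). Mycn then lay higher in calcium-high in 7 of 7 pairs, against 4 of 7 as deposited. The median difference of all genes was 0.11 in replicates 4 to 7 and -0.20 in replicates 1 to 3, so the sets were also centred differently.

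Markers of other cells and of HSCs themselves moved in replicates 4 to 7 too. Of the 11 HSC markers, 10 had a positive difference over all 14 libraries (median 0.47), and their summed level was 173 to 345 in calcium-high against 169 to 260 RPKM in calcium-low libraries, with none at 0. The mean of this list was higher in calcium-high in 7 of 7 pairs. Over all 14 libraries limma with the block called 3 of the 11 higher, against 0.917% of all genes called. In replicates 4 to 7 alone, limma called 9 of the 11 higher in calcium-high, Procr, Fgd5 and Slamf1 among them, against 8.14% of all genes. Whether Mycn and these markers share a source was not tested. Monocyte markers summed to 187 and 154 RPKM in calcium-high replicates 5 and 6 and to 65.7 and 67.5 RPKM in calcium-high replicates 4 and 7, against 56.8 to 66.3 RPKM in the calcium-low libraries of these numbers. Neutrophil markers summed to 39.9 and 77.3 RPKM in calcium-high replicates 5 and 7. Erythroid markers were higher in calcium-high in all 4 of these pairs, summing to 26.2, 63.1, 25.6 and 53.3 RPKM against 21.7, 34.8, 21.2 and 10.7 RPKM. In replicates 4 to 7 all 7 tested erythroid markers had a positive difference (median 0.65), and limma called Car1 (adjusted p = 7.96e-04) and Ermap (adjusted p = 0.0152) higher. Nkg7, the one tested T and NK cell marker, was called lower there (log2 difference -0.91, limma adjusted p = 0.0234). In calcium-high replicate 4, with Mycn at 28.2 RPKM, the monocyte and neutrophil sums (65.7 and 7.78 RPKM) were near the calcium-low libraries. The erythroid sum of that library, 26.2 RPKM, was above the 21.7 RPKM of calcium-low replicate 4. Whether these libraries held such other cells, and any part of them in the Mycn difference, was not tested.

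**Figure D2:**
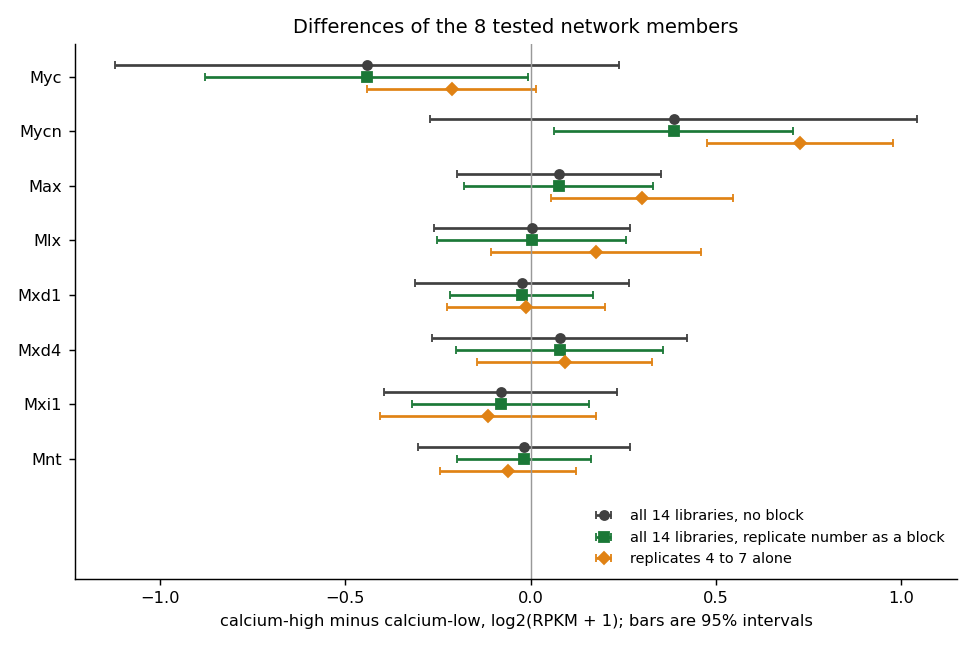
Difference, calcium-high minus calcium-low, in log2(RPKM + 1) (horizontal axis) for the 8 tested members, from limma over all 14 libraries without a block (circles), with the replicate number as a block (squares) and in replicates 4 to 7 alone (diamonds); bars are 95% intervals. Mycn in replicates 4 to 7 lies at 0.73 with an interval from 0.48 to 0.98, and Myc at -0.44 over all libraries.

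The make-up of the MYC pool also differed between the groups. Mycn made up 39.7 ± 8.44% of the summed Myc and Mycn level in calcium-high and 26.5 ± 4.07% in calcium-low libraries (SD, n = 7). The share was higher in calcium-high in 6 of 7 pairs, with replicate 3 the exception at 23.9% against 30.5%. In replicates 4 to 7 it was 37.8% to 44.3% in calcium-high and 21.4% to 28.2% in calcium-low libraries, without overlap. In replicates 1 and 2 it was 51.3% and 43.9% against 22.4% and 32.4%. The share is a ratio within a library and does not depend on how libraries are scaled to each other. It was read after the values of both genes had been seen and is given without a test.

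The sum of the 2 genes showed no such order. It was 52.6 ± 22.3 in calcium-high against 58.4 ± 21.9 RPKM in calcium-low libraries and was higher in calcium-high in 4 of 7 pairs. Mycl, the family member first known from lung cancer, added almost nothing. It was above 0 in 3 of 14 libraries, reaching 0.0413 RPKM (calcium-high replicate 5), and at most 0.0228 RPKM in the calcium-low libraries. In the 11 libraries where it was listed at 0, up to 0.0208 to 0.0542 RPKM could have gone unseen (3 reads, counting error only).

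Max (chromosome 12, 76937269 to 76962201), the partner through which MYC and MXD proteins bind DNA, was at 5.03 ± 0.739 RPKM in calcium-high (4.33 to 6.44, median 4.71) and 4.79 ± 1.19 RPKM in calcium-low libraries (3.58 to 6.38, median 4.32). The groups overlapped, and the log2 difference was 0.08 (95% interval -0.20 to 0.35, limma adjusted p = 0.994). As for Mycn, Max was lower in calcium-high in all 3 pairs of replicates 1 to 3 and higher in all 4 pairs of replicates 4 to 7, although the pair of replicate 7 was at 4.33 against 4.32 RPKM. In replicates 4 to 7 the log2 difference was 0.30 (limma adjusted p = 0.122). After median-of-ratios scaling it was 0.20, and Max was then higher in 1 of 3 and 3 of 4 pairs. The ratio of Max to the summed Myc and Mycn level was 0.0519 to 0.287, highest in calcium-low replicate 3.

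Mlx (chromosome 11, 101087277 to 101092207), the partner that links part of the repressors to the glucose-sensing MONDO proteins, did not separate the groups. It ranged from 1.89 to 4.01 RPKM in calcium-high (median 2.95, mean 3.01 ± 0.789) and from 2.34 to 3.53 RPKM in calcium-low libraries (median 2.94, mean 2.95 ± 0.384). It was higher in calcium-high in 0 of 3 pairs of replicates 1 to 3 and in 3 of 4 pairs of replicates 4 to 7. The 95% interval of the log2 difference was -0.26 to 0.27. The gene models of Mlx and of Psmc3ip on the opposite strand share 385 bases, and the counting is not stated to use strand, so reads in that stretch cannot be assigned.

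None of the repressors was called in any fit in which it was tested, and the 95% intervals of the 4 tested over all libraries were narrower than that of Myc. Mxd4 (chromosome 5, 34173883 to 34187720), the most abundant repressor, was at 5.69 ± 1.55 RPKM in calcium-high (3.56 to 7.65, median 6.49) and 5.28 ± 1.19 RPKM in calcium-low libraries (3.69 to 6.81, median 5.44). It was higher in calcium-high in 5 of 7 pairs, with a log2 difference of 0.08 (95% interval -0.27 to 0.42). Mnt (chromosome 11, 74830920 to 74845725), the broadly expressed repressor that balances MYC in most cells, was at 3.57 ± 0.658 against 3.66 ± 0.876 RPKM, with an interval of -0.30 to 0.27. The limma adjusted p was 0.998 for Mxd4 and 0.999 for Mnt.

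Mxd1 (chromosome 6, 86647042 to 86669161) and Mxi1 (chromosome 19, 53310518 to 53375810), repressors known from cells that stop dividing and differentiate, were highest in replicate 3 of both groups. In that replicate Mxd1 was at 5.54 (calcium-high) and 6.31 RPKM (calcium-low), against 3.06 to 4.12 RPKM in the other libraries. Mxi1 was at 3.53 and 4.73 RPKM there, and at 1.83 to 3.18 RPKM in the others. Mxd1 averaged 3.82 ± 0.847 against 3.93 ± 1.10 RPKM and Mxi1 2.55 ± 0.625 against 2.79 ± 0.946 RPKM. The 95% intervals of their log2 differences were -0.31 to 0.26 for Mxd1 and -0.40 to 0.23 for Mxi1. Without calcium-low replicate 3 the differences were 0.07 and 0.02, both with the opposite sign.

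Mxd3 (chromosome 13, 55325168 to 55329823), a repressor that unlike its relatives is known from dividing cells, was carried by one library. It was at 5.59 RPKM (167 reads) in calcium-low replicate 3, the library with cycling markers at 206 RPKM, and between 0 and 1.68 RPKM in the other 13. The next highest value was calcium-high replicate 5. Whether calcium-low replicate 3 held other cells, and any part of them in its Mxd3 level, was not tested. The exact two-sided sign-flip permutation test over the 7 pairs gave p = 0.844, where 7 pairs allow no p below 0.0156. Mxd3 shares 105 bases with Prelid1 on the opposite strand, which was at 30.8 RPKM on average, and reads in that stretch cannot be assigned.

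Tests of single genes by replicate number, run for all 10 members on the levels as deposited, gave no p under 0.05. They were not run under median-of-ratios scaling, where Mycn was higher in calcium-high in 7 of 7 pairs. The smallest exact two-sided sign-flip permutation p over 7 pairs were 0.125 for Mycn and 0.141 for Myc, and the other 8 lay between 0.484 and 1.

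Activators and repressors were then set against each other within each library. The mean log2(RPKM + 1) of Myc, Mycn and Mycl exceeded that of the 5 repressors by 1.19 ± 0.44 in calcium-high and by 1.17 ± 0.64 in calcium-low libraries (SD, n = 7). The contrast was higher in calcium-high in 4 of 7 pairs, and the mean difference of 0.02 was far smaller than its SD over pairs of 0.43. It ranged from 0.34 to 1.64 in calcium-high and from -0.18 to 1.86 in calcium-low libraries. The only negative value was calcium-low replicate 3, with the lowest Myc and the highest Mxd1, Mxd3 and Mxi1 of all libraries. Without it the mean difference was -0.21. Replicates 4 to 7 gave a mean difference of 0.14 and replicates 1 to 3 one of -0.15.

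The 2 activators pulled this contrast in opposite directions. Myc alone minus the repressors was lower in calcium-high by 0.41 on the log2 scale on average, in 6 of 7 pairs. Mycn alone minus the repressors was higher by 0.42 on average, in 5 of 7 pairs. The repressor levels summed to 16.1 ± 2.17 in calcium-high against 16.6 ± 3.44 RPKM in calcium-low libraries, a difference smaller than either SD.

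**Figure D3:**
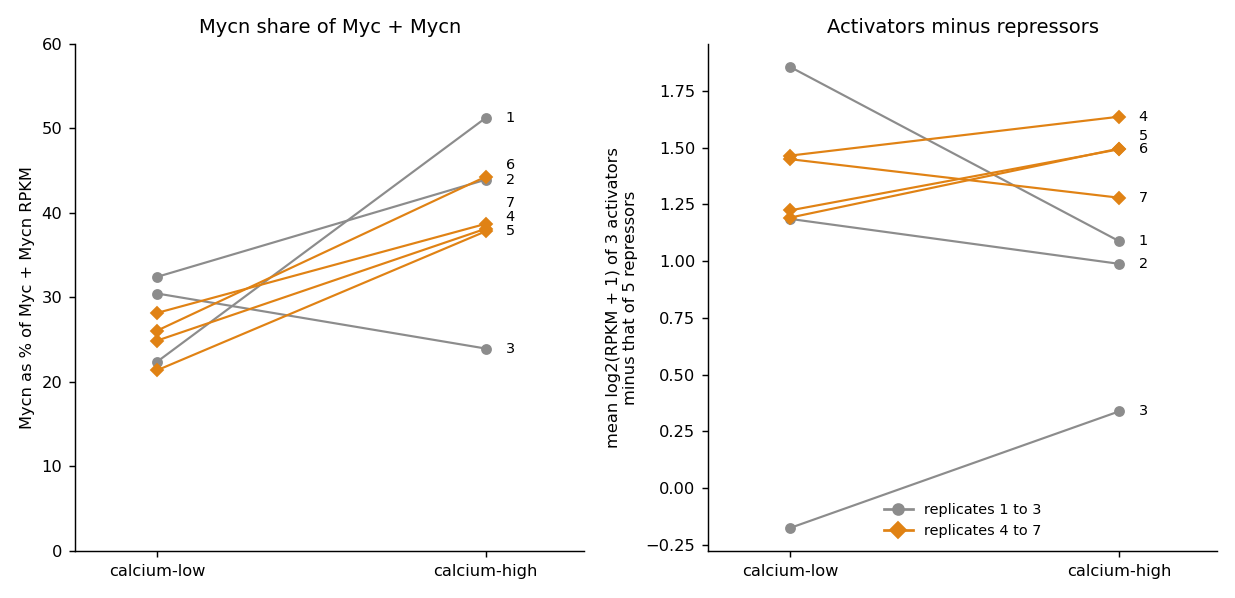
Left, Mycn as a percentage of the summed Myc and Mycn RPKM in calcium-low and calcium-high libraries, and right, the mean log2(RPKM + 1) of the 3 activators minus that of the 5 repressors; each line joins libraries with the same replicate number, printed at its right end, with grey circles for replicates 1 to 3 and orange diamonds for replicates 4 to 7. The Mycn share goes up in 6 of 7 pairs, while the contrast goes up in 4 of 7.

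The proteins that work with the network showed no called gene. Of 17 partners and co-regulators, 16 were tested, and 3 had a positive and 13 a negative difference (median -0.08, against -0.03 over all genes), with 0 called with or without the block. Mlxip, the MONDO partner of MLX present in these cells, was at 8.92 ± 1.59 in calcium-high against 7.89 ± 0.891 RPKM in calcium-low libraries. Its liver-type relative Mlxipl stayed at or below 0.0594 RPKM. The co-repressor scaffold Sin3b was at 10.2 ± 2.16 against 9.33 ± 1.05 RPKM and the co-repressor Ncor1 at 12.0 ± 0.958 against 12.8 ± 1.45 RPKM. Wdr5, a chromatin adaptor that MYC binds, was at 9.84 ± 1.14 against 10.8 ± 2.20 RPKM.

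Genes that set how long the MYC protein lasts likewise held no called gene. Of 20, 19 were tested, 5 with a positive and 14 with a negative difference (median -0.04), and 0 were called with or without the block. The deubiquitinase Usp37 was lower in calcium-high in 7 of 7 pairs, at 4.61 ± 0.324 against 5.62 ± 1.09 RPKM (limma adjusted p = 0.734 without and 0.293 with the block). The ubiquitin ligase Stub1 was at 10.7 ± 1.22 against 13.4 ± 2.91 RPKM. On the other side, Trpc4ap, a ligase adaptor, was at 18.4 ± 2.50 against 17.1 ± 1.27 RPKM, and the deubiquitinase Usp7 at 9.60 ± 2.63 against 9.59 ± 3.86 RPKM.

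Genes widely described as activated by MYC leaned to the calcium-low side over all libraries without a call. All 65 were tested, 12 with a positive and 53 with a negative difference (median -0.10, against -0.03 over all genes), and 0 were called with or without the block. In replicates 4 to 7 alone, 43 were positive and 22 negative, with a median of 0.04 against 0.11 over all genes. Mcm4, part of the replicative helicase, was lower in calcium-high in 7 of 7 pairs, at 15.1 ± 2.63 against 20.6 ± 3.87 RPKM (limma adjusted p = 0.406 without and 0.107 with the block). It was the 1 activated target that limma-voom called, lower, without the block (adjusted p = 0.0349). Shmt1, an enzyme of one-carbon metabolism, was at 4.89 ± 0.960 against 6.27 ± 1.04 RPKM.

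Ccnd2, which encodes the G1 cyclin D2, was higher in calcium-high in 7 of 7 pairs, at 35.4 ± 8.77 against 27.6 ± 6.69 RPKM. Its log2 difference of 0.36 had a limma adjusted p of 0.824 without and 0.112 with the block, and in replicates 4 to 7 alone 0.0144. There the mitochondrial transcription factor Tfb2m, named after its value was seen, was the only other activated target called (limma adjusted p = 0.0232). Polr1b, a subunit of RNA polymerase I, was at 7.32 ± 0.943 against 6.50 ± 1.14 RPKM. Of the 56 activated targets with a promoter window, 12 (21.4%) held the E-box shown above.

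Among targets of the network, limma with the block called 1 gene over all libraries, from the list widely described as repressed by MYC. Of 9, 8 were tested, 2 with a positive and 6 with a negative difference (median -0.35), and Cdkn2b was listed at 0 in all libraries. Ndrg1, a stress-responsive gene known to be repressed by MYC and MYCN, was at 10.2 to 12.4 in calcium-high against 13.5 to 23.7 RPKM in calcium-low libraries, so that the groups did not overlap. Its means were 11.0 ± 0.909 and 18.0 ± 4.16 RPKM, and it was lower in 7 of 7 pairs. The log2 difference of -0.63 passed by limma with the block (adjusted p = 0.0337) and not without it (adjusted p = 0.0990), and passed in replicates 4 to 7 alone (adjusted p = 0.00277). Without calcium-low replicate 3 it was -0.69 and passed by limma without the block (adjusted p = 0.0347). The share of all tested genes whose groups did not overlap was not counted.

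The inhibitors of cyclin-dependent kinases in this list lay on both sides of 0. Cdkn1c (p57), an inhibitor tied to HSC quiescence, was higher in calcium-high in 6 of 7 pairs, at 3.51 ± 1.31 against 2.17 ± 1.04 RPKM (limma adjusted p = 0.711 without and 0.116 with the block, and 0.0127 in replicates 4 to 7 alone). Cdkn1b (p27) was lower in calcium-high in 7 of 7 pairs, at 10.5 ± 3.46 against 13.3 ± 2.77 RPKM (limma adjusted p = 0.819 without and 0.116 with the block). Cdkn1a (p21) was lower in 6 of 7 pairs, at 2.92 ± 0.986 against 4.39 ± 1.79 RPKM (limma adjusted p = 0.734 without and 0.123 with the block). Cdkn1b and Cdkn1a were picked for naming with their values known. Gadd45a, a growth arrest gene, was lower in 7 of 7 pairs, at 1.83 ± 0.755 against 2.95 ± 0.546 RPKM (limma adjusted p = 0.368 without and 0.0830 with the block). Ndrg2, a relative of Ndrg1, was at 2.05 ± 0.867 against 1.28 ± 0.274 RPKM. Limma-voom without the block called 1 gene of this list higher (Cdkn1c) and 3 lower (Ndrg1, Gadd45a and Cdkn1a).

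The glucose-responsive targets of MLX dimers gave 5 tested genes of 6, with 3 positive and 2 negative differences (median 0.10) and 0 called with or without the block. Arrdc4, an arrestin-like regulator of glucose uptake, was higher in calcium-high in 7 of 7 pairs, at 2.54 ± 0.660 against 1.65 ± 0.828 RPKM (limma adjusted p = 0.585 without and 0.0988 with the block, and 0.0122 in replicates 4 to 7 alone), and limma-voom without the block called it higher (adjusted p = 0.00477). Its relative Txnip was at 61.1 ± 17.1 against 53.0 ± 19.5 RPKM. The lipogenic enzymes Acly and Fasn were at 20.9 ± 1.69 against 21.4 ± 1.57 RPKM and 17.3 ± 5.39 against 17.7 ± 5.99 RPKM.

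Myc itself is induced early after a stimulus, so immediate early genes were read beside it. Of the 10, all tested, 3 had a positive and 7 a negative difference (median -0.30), and 1 was called lower with the block (5 in replicates 4 to 7 alone, and 5 by limma-voom without the block). The gene called with the block was Jun, a subunit of the AP-1 factor (limma adjusted p = 0.119 without and 0.0364 with the block). It was at 32.5 to 65.0 in calcium-high against 72.3 to 82.6 RPKM in calcium-low libraries, without overlap. How many of all tested genes had no overlap was not counted. Egr1 and Fosb, both of the same early response, were on the other side, at 38.9 ± 5.86 against 31.3 ± 6.46 RPKM and 21.6 ± 5.73 against 18.6 ± 7.17 RPKM. Btg2 was at 17.8 ± 5.57 against 28.7 ± 9.40 RPKM. The part of handling or stimulation during the sort in the levels of Myc was not tested.

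Cycling genes followed calcium-low replicate 3. All 5 tested had a negative difference over all libraries (median -0.61), and 1 had a positive and 4 a negative difference without that library (median -0.13), with 0 called in both fits. Top2a, which untangles DNA at mitosis, was at 69.2 RPKM in that library and at 2.24 to 5.63 RPKM in calcium-high libraries. Cdk1, the mitotic kinase, was at 17.3 RPKM in that library.

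**Figure D4:**
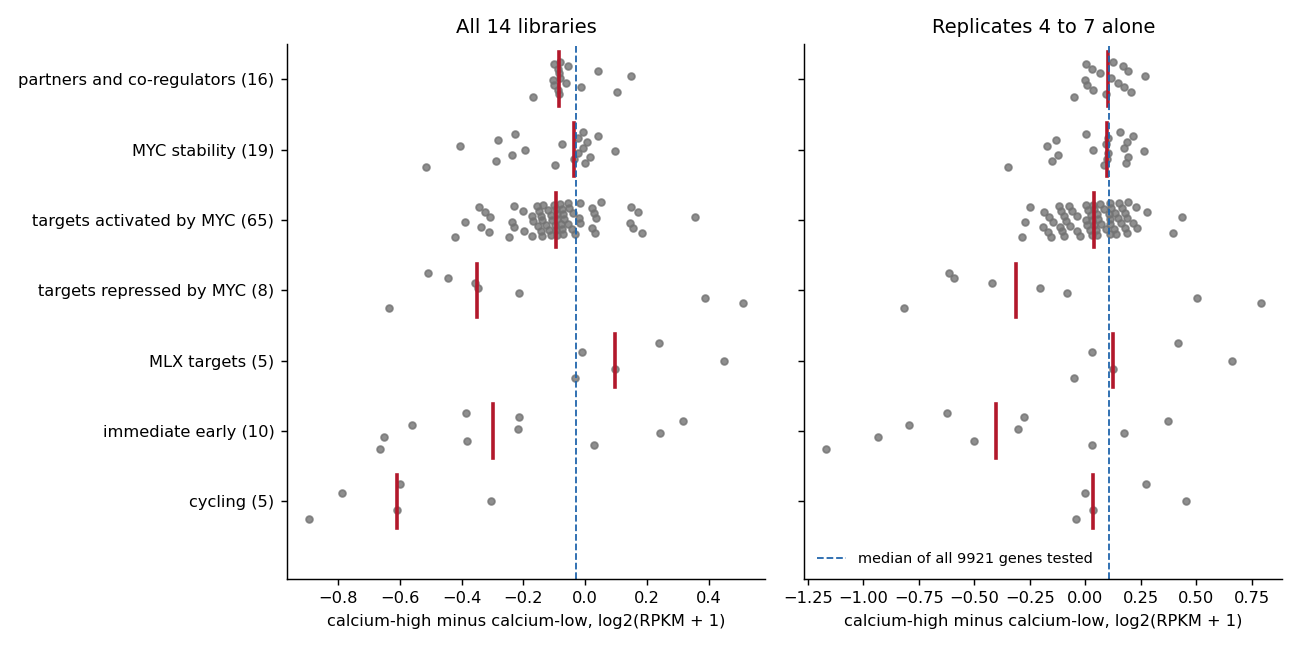
Difference, calcium-high minus calcium-low, in log2(RPKM + 1) (horizontal axis) for each tested gene of 7 lists around the network (grey points, number tested in brackets), with the list median as a red bar and the median of all 9921 tested genes as a dashed line, over all 14 libraries (left) and in replicates 4 to 7 alone (right). The targets repressed by MYC have a median of -0.35 on the left and the activated targets one of -0.10, and the cycling genes lie below 0 on the left and around 0 on the right.

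By Pearson's r of log2(RPKM + 1) over all 14 libraries, the genes most like Myc were Rps9 (0.969), a ribosomal protein gene, Sp110 (0.951), Ung (0.951), Ehmt1 (0.950) and Alox5ap (0.949). These points share library depth and replicate set, and within the 8 libraries of replicates 4 to 7 the same values ran from 0.323 for Sp110 to 0.719 for Ung. For Mxd4 the nearest genes were Khnyn (0.932), a copy of Clcn6 (0.917), Athl1 (0.898), Tmc6 (0.895) and Tpcn2 (0.891). Mycn and Myc had r = 0.65 over 14 libraries and r = -0.42 over the 8 of replicates 4 to 7, so that the sign depended on the libraries included.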

How the data were processed

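RNA of 100 sorted HSCs per library was measured in 14 libraries. The deposited files hold RPKM computed by the authors, 1 file per library; the unit is not named per the file headers and was read from the values. The submitters' processing notes name edgeR and the builds GRCm38 and mm10; aligner, counting and annotation are not given in the sources used here. RPKM values were whole multiples of a step per gene. The steps gave whole reads, to within 0.1 reads, in 9848 of 9848 genes detected everywhere whose mean was at least 1 RPKM. Recovered library totals set the depth.

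Of 48737 labels, 23 had become serial numbers and were left out. Genes that averaged at least 1 RPKM were compared by limma 3.58.1 (R 4.3.3, mean-variance trend) on log2(RPKM + 1), calcium-high minus calcium-low, with Benjamini-Hochberg adjustment; a pseudocount of 1 understates changes of low genes. The step was checked on simulated data. Tables used Python 3.11.15, pandas 2.3.3 and numpy 2.4.6, and figures matplotlib 3.10.9. Gene positions and overlaps are from GENCODE on GRCm38.

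Deviations of same-numbered libraries from their group means correlated at 0.384 to 0.715 in all 7 pairs, above the limit of 0.1. The replicate number was therefore also used as a block. With each replicate set centred apart, the correlations were 0.276 to 0.552 in replicates 1 to 3. In replicates 4 to 7 they were only 0.123, 0.048, -0.065 and 0.031. Pairs of replicates 4 to 7 are thus pairs by number, with little likeness beyond that of their set. Y-linked genes had 1316 to 1650 reads in each library of replicates 1 and 2, and 16 to 75 in the others. The labels name no batch. Replicates 1 to 3 and 4 to 7 are set apart by depth, while by Y-linked reads replicate 3 falls with replicates 4 to 7.

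Alternatives were pseudocounts of 0.1 and 5, no filter or a mean of 5 RPKM, median-of-ratios scaling, the block, either replicate set alone, limma-voom on recovered reads and each library left out. Tests between replicate sets, single libraries left out of replicates 4 to 7, the block in voom and lists without calcium-low replicate 3 were added after seeing the data. So were the fits of replicates 4 to 7 alone with the block and with median-of-ratios scaling. All 10 members are named; of each list, the genes called with or without the block and otherwise up to 2 per direction by smallest p; for likeness, the 5 nearest genes to Myc and to the most abundant repressor. Members and lists were chosen with earlier results of these data known.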

Additional observations from a re-analysis of the deposited data

Results flagged for a closer look

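The 10 members and 4 sums or ratios of them, in each calcium group, made 28 groups of 7 libraries. In each, the highest or lowest library was checked for standing apart from the rest. Chance gives this in about 5% of groups if they are independent and their values normally distributed. These groups share libraries and Mycl was at 0 in most libraries, so that rate does not hold here. Of the 28 groups, 7 had such a library. Calcium-low replicate 3 was apart in Mxd1 (6.31 RPKM), Mxd3 (5.59 RPKM) and the activator minus repressor contrast (-0.18 on the log2 scale). Calcium-high replicate 3 was apart in Mxd1 as well (5.54 RPKM). In calcium-high replicate 2 the repressors summed to 11.6 RPKM, below all others of its group. Mycl was apart at 0.0413 RPKM in calcium-high replicate 5, which is 5 reads, and at 0.0228 RPKM in calcium-low replicate 4, which is 3 reads.

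For 2 members, every pair of replicates 1 to 3 pointed one way and every pair of replicates 4 to 7 the other, as deposited. Some pairs were close to 0, with log2 differences of -0.007 (Mycn, replicate 1) and 0.0006 (Max, replicate 7). Neither member kept the pattern under median-of-ratios scaling. The share of all genes with it was not counted, and the median difference of all genes was -0.20 in replicates 1 to 3 and 0.11 in replicates 4 to 7. The Mycn difference was larger in replicates 4 to 7 by 0.79 on the log2 scale (limma adjusted p = 0.0502 with the block), and the Max difference by 0.52 (limma adjusted p = 0.0687 with the block). With median-of-ratios scaling these were 0.43 and 0.19 (limma adjusted p = 0.366 and 0.684). Depth also differed between the replicate sets, and Y-linked reads set replicates 1 and 2 apart from all others. The share of each library total in listed genes differed too. In replicates 1 to 3 it was 25.0% to 26.0% in calcium-high and 27.4% to 32.5% in calcium-low libraries. In replicates 4 to 7 it was 28.4% to 30.7% in calcium-high and 26.5% to 28.3% in calcium-low libraries. The part of any of these was not tested.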

How the results depend on the processing

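The count of called members was 0 under most settings and became 1 (Mycn) in replicates 4 to 7 alone, with or without the replicate block, and by limma-voom on recovered reads, with or without it, and 2 (Myc and Mycn) in replicates 4 to 7 with median-of-ratios scaling; it stayed at 0 without each library in turn and, under the block, without each pair. The count over all genes, 0 as reported, was 1 without a filter, 1 with a filter at 5 RPKM, 4 with median-of-ratios scaling, 91 with the replicate block, 288 with the block and that scaling, 808 in replicates 4 to 7 alone (656 with the block, 605 with that scaling), 756 by limma-voom (664 with the block) and 0 to 101 without each library. With the block it was 0 to 302 without each pair; the causes were not tested.

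The Myc difference stayed negative in all 27 settings (-0.75 to -0.21) and that of Mycn positive in all but 1, from 0.21 to 0.64 without each library, reversing to -0.067 in replicates 1 to 3 alone. There Max (-0.22), Mlx (-0.23) and Mnt (0.041) reversed too. Other reversals lay close to 0. Mxd4 was at -0.019 in replicates 4 to 7 with median-of-ratios scaling. Mlx was at -0.0045 with a pseudocount of 0.1 and Mxd1 at 0.00058 with median-of-ratios scaling, also with the block, and 0.025 by limma-voom. Without each library Mlx ranged from -0.055 to 0.077, Mxd1 from -0.101 to 0.075, Mxi1 from -0.143 to 0.024 and Mnt from -0.092 to 0.048. Without each pair, under the block, Max ranged from -0.012 to 0.158, Mlx from -0.058 to 0.060, Mxd1 from -0.060 to 0.020, Mxd4 from -0.018 to 0.174 and Mnt from -0.061 to 0.0077. The contrast difference, 0.02 as reported, moved by less than 1 SD of libraries (0.55) throughout. That limit is far wider than the difference, whose sign was not stable (-0.21 to 0.16 without each library). Depth limits Mycl and Mxd3, which hold few or no reads in most libraries.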

Other observations

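Likeness to Mycn was read as for Myc, although this gene was added after its values were seen. The genes with the highest Pearson's r of log2(RPKM + 1) over the 14 libraries were Agap2 (0.960), Pglyrp2 (0.959), Sbno2 (0.955), Sirpa (0.955) and Dag1 (0.950). Within the 8 libraries of replicates 4 to 7 these values were 0.852 to 0.909. Max, at r = -0.18 with Mycn over 14 libraries, had r = 0.74 over those 8. All these points share libraries, and no test was made.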
